A study of Mus musculus with 6 samples.

Results

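The interferon regulatory factors (IRFs) are the transcription factors that carry innate immune signals to the interferon genes and their targets, and 8 of them (Irf1, Irf2, Irf3, Irf4, Irf5, Irf7, Irf8 and Irf9) were followed here in BV2 cells, an immortalized mouse microglial line. The members were taken as the non-control array probes whose accession belongs to one of these genes, which gave 14 probes of 8 genes among 56605 probes, of which 33767 matched 23462 genes in all. Irf1, Irf3, Irf4, Irf5, Irf7 and Irf9 had a pair of probes each, and Irf2 and Irf8 had 1 each. Total RNA was hybridised to 6 single-colour Agilent arrays, 3 from cells with overexpression of PGC-1α (encoded by Ppargc1a, a coactivator best known for driving mitochondrial biogenesis) and 3 from cells without it. Every array came from cells given lipopolysaccharide (LPS), which the study's culture methods give as 500 ng/ml for 6 h without naming the arrays. By the culture methods, PGC-1α was delivered by a lentivirus with a ubiquitin promoter and with fluorescent and resistance genes. Cells were selected with puromycin at 2 µg/ml, so the PGC-1α cells are a selected pool of 1 line. For its oxygen and glucose deprivation work the paper describes vectors without a fluorescent tag, and neither section names the arrays. Whether the cells on the arrays carried the fluorescent gene is thus not stated. The culture methods describe a negative-control virus for BV2 cells, while the labels name the other group only as lacking overexpression, and neither says whether the arrays without PGC-1α came from cells given that virus. Nothing states that the 3 arrays of a group came from separate cultures, so the p-values measure the spread between these samples only, which may be technical.

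IRFs share a DNA-binding domain that reads GAAA repeats, the core of the interferon-stimulated response element. IRF3 and IRF7 sit latent in the cytoplasm until the kinases TBK1 and IKKε phosphorylate them downstream of LPS or viral nucleic acid, after which they switch on interferon-β and the interferon-α genes, while IRF5 is tied more to inflammatory cytokines. Secreted interferon then acts through ISGF3, a complex in which IRF9 is the subunit that reads the DNA. IRF1 is induced by interferon-γ, IRF2 competes with it for the same sites, and IRF4 and IRF8 are lineage factors of immune cells that bind with partners such as PU.1. IRF8 is required for a normal microglial population.

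The promoters of the 8 genes, 300 bases each from 250 before to 50 after an annotated start, were read from RefSeq (GRCm38.p6), which gave 11 windows because Irf1, Irf8 and Irf9 have more than 1 start. They were searched on both strands for the response element GAAANNGAAA, for the gamma-activated sequence TTCNNNGAA, found at genes that interferon-γ induces, and for AAGGTCA, the site of the oestrogen-related receptors that PGC-1α coactivates. GAAANNGAAA stood in 3.44% of the 32851 windows of the whole table, TTCNNNGAA in 8.30% and AAGGTCA in 4.72%. The sequences below are shown for Irf3 and Irf4, whose probes had the lowest fold changes of the family, and for the promoters of the other members that held one of the immune motifs, 5′ to 3′ on the gene's strand with matches in capitals.
Irf3 (chr7:44997398-44997697, + strand): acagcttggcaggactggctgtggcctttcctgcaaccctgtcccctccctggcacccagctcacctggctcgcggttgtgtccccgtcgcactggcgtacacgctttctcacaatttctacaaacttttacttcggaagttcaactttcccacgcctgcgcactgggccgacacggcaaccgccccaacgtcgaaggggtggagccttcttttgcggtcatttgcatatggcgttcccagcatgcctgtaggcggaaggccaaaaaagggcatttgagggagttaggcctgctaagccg
Irf4 (chr13:30748983-30749282, + strand): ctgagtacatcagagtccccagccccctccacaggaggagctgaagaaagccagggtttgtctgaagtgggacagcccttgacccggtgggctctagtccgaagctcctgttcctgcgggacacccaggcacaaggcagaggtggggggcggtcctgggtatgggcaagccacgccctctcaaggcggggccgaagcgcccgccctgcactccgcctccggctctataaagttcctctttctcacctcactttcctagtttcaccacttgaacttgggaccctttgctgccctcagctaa
Irf8 (chr8:120736108-120736407, + strand): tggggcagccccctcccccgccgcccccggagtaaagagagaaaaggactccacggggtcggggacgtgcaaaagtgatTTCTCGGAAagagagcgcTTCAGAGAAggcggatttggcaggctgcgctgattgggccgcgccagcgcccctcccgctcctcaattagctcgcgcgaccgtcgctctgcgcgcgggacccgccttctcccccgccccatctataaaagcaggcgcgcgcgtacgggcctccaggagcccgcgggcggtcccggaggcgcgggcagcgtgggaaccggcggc
Irf2 (chr8:46739495-46739794, + strand): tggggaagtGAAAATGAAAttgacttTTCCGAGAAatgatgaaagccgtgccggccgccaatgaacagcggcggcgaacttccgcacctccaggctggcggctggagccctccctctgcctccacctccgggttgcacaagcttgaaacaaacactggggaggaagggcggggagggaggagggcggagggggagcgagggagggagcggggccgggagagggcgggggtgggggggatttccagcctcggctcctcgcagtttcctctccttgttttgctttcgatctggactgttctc
Irf1 (chr11:53769764-53770063, + strand): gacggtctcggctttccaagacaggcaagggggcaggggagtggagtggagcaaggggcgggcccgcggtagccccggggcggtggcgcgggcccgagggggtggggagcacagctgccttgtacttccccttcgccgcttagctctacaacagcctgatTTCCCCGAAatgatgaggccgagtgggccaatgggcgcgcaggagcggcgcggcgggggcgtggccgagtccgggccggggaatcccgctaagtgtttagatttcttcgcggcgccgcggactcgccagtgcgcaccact

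None of the 3 motifs occurred in the Irf3 or Irf4 window. Irf8 held a pair of gamma-activated sequences, TTCTCGGAA at position -171 and TTCAGAGAA at position -153, counted from the start site to the first base of the match. Irf2 held GAAAATGAAA at -241 and TTCCGAGAA at -224, and Irf1 held TTCCCCGAA at -90. AAGGTCA occurred in 1 of the 11 windows, the second start of Irf9, at -28 and on the opposite strand at -135. The windows of Irf5 and Irf7 and the other starts of Irf1, Irf8 and Irf9 held no match, and a match here is only a run of letters.

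All 14 IRF probes were well above background on all 6 arrays. Of these, 9 were lower with PGC-1α, 1 was higher and 4 did not pass (limma, Benjamini-Hochberg adjusted over 38919 tested probes, threshold 0.05). Over all tested probes 53.8% passed in either direction, 18.4% lower and 35.4% higher, so change was common on these arrays, and the family's share lower is read against that 18.4%. Irf2, Irf3, Irf4, Irf8 and Irf9 were lower with every probe they had, Irf1 and Irf7 passed with 1 probe of a pair, in opposite directions, and Irf5 passed with none. A fall of at least 2-fold was reached by 5 probes of Irf3, Irf4 and Irf9, compared with 8.4% of all tested probes, and a rise of that size by none, compared with 8.13%. The 3 arrays of each group did not overlap at 10 of the 14 probes, 9 of them lower and 1 higher with PGC-1α, and over all probes with 6 values 63.6% did not overlap, 22.2% lower and 41.4% higher.

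The median log2 fold change (with minus without PGC-1α) was -0.69 over the 14 IRF probes and 0.25 over all tested probes. The latter depends on the scaling. Under quantile normalization, which gives all arrays the same distribution of values, the median of all probes was 0.05 and that of the IRF probes -0.71. Of all called probes 65.9% were higher with 75th percentile scaling and 52.6% with quantile normalization, where 43.5% of tested probes passed, 20.6% lower and 22.9% higher. The IRF counts were the same under both, 9 lower and 1 higher.

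**Figure D1:**
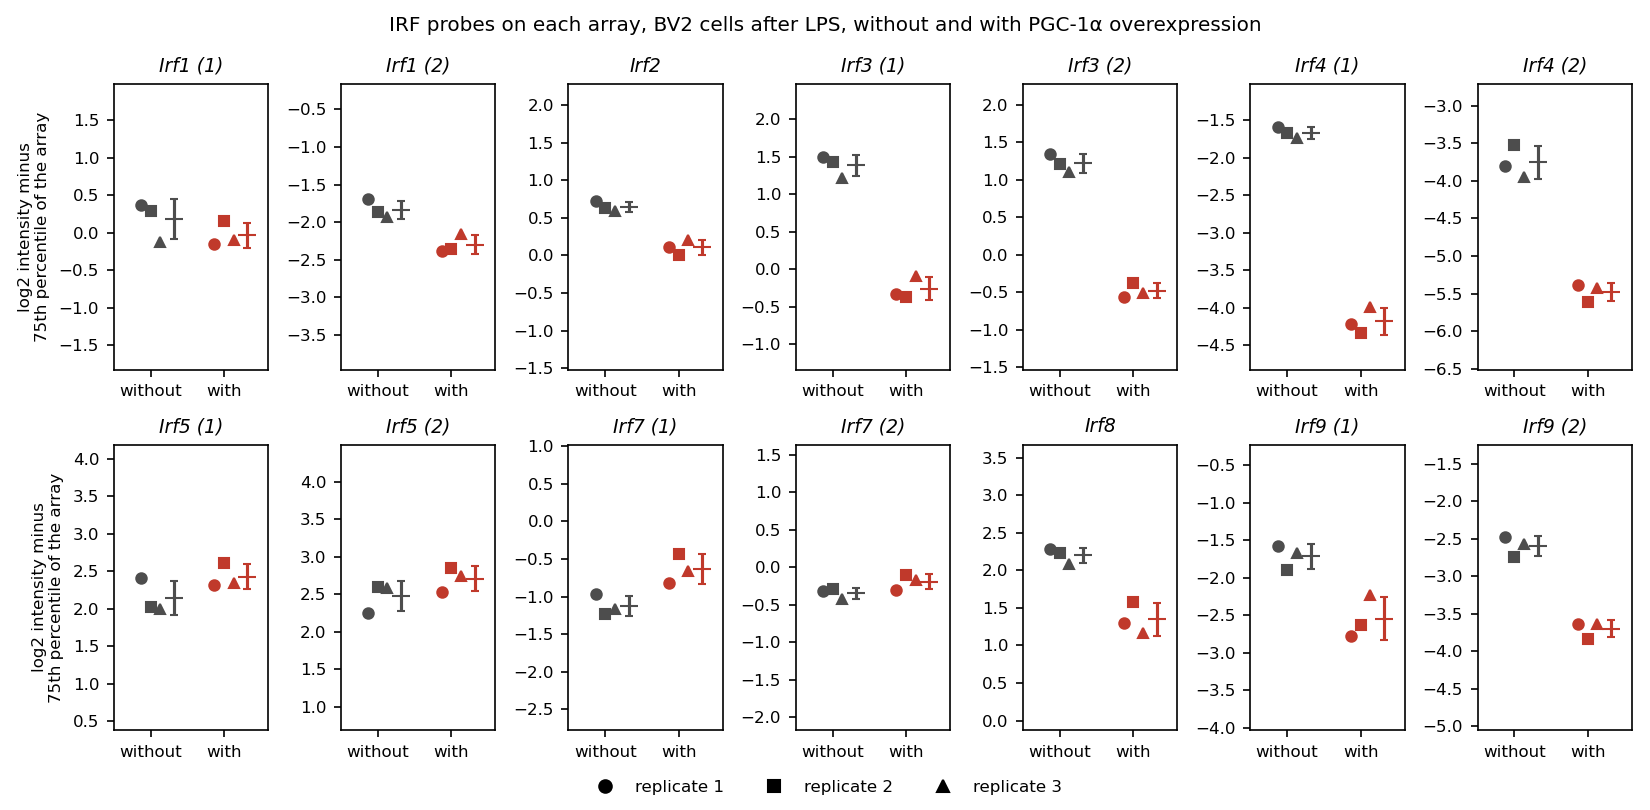
Scaled log2 intensity (log2 of the array signal minus the log2 of that array's 75th percentile) of the 14 IRF probes on the 3 arrays without (grey) and the 3 arrays with (red) PGC-1α overexpression. Symbols mark the replicate number, the bar beside them is the mean ± SD, all panels span the same number of log2 units, and where a gene had a pair of probes the panels follow the order in which the text gives them. The groups are separate in 10 panels and overlap in one Irf1, both Irf5 and one Irf7 panel.

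Of the 2 factors that LPS and nucleic acid sensors activate first, Irf3 was lower with PGC-1α and Irf7 was not. Values are scaled log2 intensities, on which 0 marks the 75th percentile of the array. Irf3 (probe A_55_P2083939) read 1.50, 1.43 and 1.22 on the arrays without and -0.33, -0.37 and -0.09 on the arrays with PGC-1α. Its other probe (A_55_P2745005) read 1.35, 1.21 and 1.10 without and -0.57, -0.37 and -0.51 with. Each array without PGC-1α was thus more than 1 log2 unit above each array with it at both probes. The log2 fold changes were -1.64 (SE 0.15, adjusted p = 2.19e-04, limma) and -1.70 (SE 0.14, adjusted p = 1.44e-04, limma), or 3.12-fold and 3.25-fold lower. Only 3.09% and 2.80% of all tested probes had a lower fold change.

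Irf7, which interferon itself induces and which carries the later interferon-α wave, gave a different picture at each probe. Probe A_51_P421876 read -0.97, -1.23 and -1.16 without and -0.82, -0.43 and -0.65 with PGC-1α, with no overlap. It was 1.40-fold higher (log2 fold change 0.49, SE 0.15, adjusted p = 0.029, limma), which is above the median of all probes by 0.24. Probe A_55_P2744251 read -0.31, -0.29 and -0.43 without and -0.30, -0.11 and -0.17 with, and these ranges overlapped. Its log2 fold change was 0.15 (95% interval -0.15 to 0.45, adjusted p = 0.34, limma). The higher call of the first probe was lost under median scaling (log2 fold change 0.38, adjusted p = 0.089, limma), on slide 1 alone (0.48, adjusted p = 0.10, limma) and with no filter on dim probes (0.49, adjusted p = 0.063, limma). It was also lost without replicate 2 or 3 of the arrays without PGC-1α (0.43 and 0.47, adjusted p = 0.097 and 0.077, limma) and without replicate 2 or 3 of those with it (0.38 and 0.50, adjusted p = 0.063 and 0.052, limma). No rise of Irf7 was shared by both probes.

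Irf5, the factor most tied to inflammatory cytokines downstream of MyD88, did not pass at either probe. Probe A_51_P346668 read 2.41, 2.02 and 2.00 without and 2.32, 2.62 and 2.34 with PGC-1α. Probe A_55_P2739057 read 2.25, 2.59 and 2.59 without and 2.53, 2.85 and 2.75 with. In both cases the ranges of the groups overlapped. The log2 fold changes were 0.28 (95% interval -0.10 to 0.67, adjusted p = 0.18, limma) and 0.23 (95% interval -0.13 to 0.60, adjusted p = 0.24, limma), which lie 0.04 above and 0.01 below the median of all probes. With quantile normalization they turned to -0.010 and -0.11, so these data give Irf5 no direction.

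Irf9, the DNA-binding subunit of ISGF3, was lower at both probes. Probe A_51_P127367 read -1.57, -1.90 and -1.67 without and -2.77, -2.64 and -2.23 with PGC-1α. Probe A_55_P2114938 read -2.48, -2.74 and -2.57 without and -3.63, -3.83 and -3.64 with. All 3 arrays with PGC-1α lay below all 3 arrays without it at each. The log2 fold changes were -0.83 (SE 0.18, adjusted p = 0.0071, limma), or 1.78-fold lower, and -1.11 (SE 0.14, adjusted p = 8.95e-04, limma), or 2.15-fold lower. With normexp background correction in place of the scanner's processed signal the second value was -0.62 and kept its call.

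The lineage factors Irf4 and Irf8 were both lower with PGC-1α. Irf4, better known from B cells, plasma cells and alternatively activated macrophages, read -1.59, -1.68 and -1.74 without and -4.21, -4.34 and -3.98 with PGC-1α at probe A_55_P2109445. Its log2 fold change of -2.51 (SE 0.14, adjusted p = 4.72e-05, limma), or 5.70-fold lower, was the lowest of the 14 IRF probes, and 0.82% of all tested probes had a lower one. The dimmer probe A_55_P2733572 read -3.80, -3.52 and -3.94 without and -5.39, -5.61 and -5.43 with, a log2 fold change of -1.73 (SE 0.16, adjusted p = 2.28e-04, limma) or 3.31-fold lower. The groups stood well apart at both probes. The size depended on the background correction: with normexp the values were -1.62 and -0.43 with 75th percentile scaling and -1.82 and -0.78 with quantile normalization, all still past the threshold.

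Irf8, the microglial and myeloid lineage factor, read 2.29, 2.23 and 2.08 without and 1.29, 1.58 and 1.16 with PGC-1α at its 1 probe (A_52_P354823). The lowest array without PGC-1α was above the highest with it. Irf8 was 1.81-fold lower (log2 fold change -0.85, SE 0.15, adjusted p = 0.0037, limma), and 10.8% of all tested probes had a lower fold change. Under quantile normalization the value was -1.08 (adjusted p = 0.0013, limma), so Irf8 was lower under both scalings.

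The antagonists Irf1 and Irf2 differed in how far their probes bore a call. Irf2, the repressor that occupies IRF1 sites, read 0.73, 0.63 and 0.59 without and 0.11, 0.00 and 0.21 with PGC-1α (probe A_51_P316523). These groups did not overlap, and Irf2 was 1.46-fold lower (log2 fold change -0.54, SE 0.13, adjusted p = 0.010, limma). Irf1, the activator, read 0.37, 0.30 and -0.12 without and -0.15, 0.16 and -0.10 with at probe A_52_P175685, where the groups overlapped and the log2 fold change was -0.22 (95% interval -0.62 to 0.19, adjusted p = 0.32, limma). The dimmer probe A_55_P2000062 read -1.70, -1.87 and -1.93 without and -2.39, -2.36 and -2.16 with, with no overlap. Its log2 fold change was -0.47 (SE 0.14, adjusted p = 0.023, limma), and it lost its call without replicate 1 or 2 of the arrays without PGC-1α (adjusted p = 0.078 and 0.058, limma) or replicate 1 of those with it (adjusted p = 0.086, limma). On slide 2 alone it was -0.23, with no test. A fall of Irf1 was thus not borne by the brighter probe.

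The exact two-sided permutation test of the 6 arrays, run on each IRF probe by itself, cannot go below p = 0.1 with 3 against 3. The exact p was 0.1 at the 10 probes without overlap, 0.2 at the second Irf7 probe and 0.3 at the first Irf1 probe and both Irf5 probes.

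**Figure D2:**
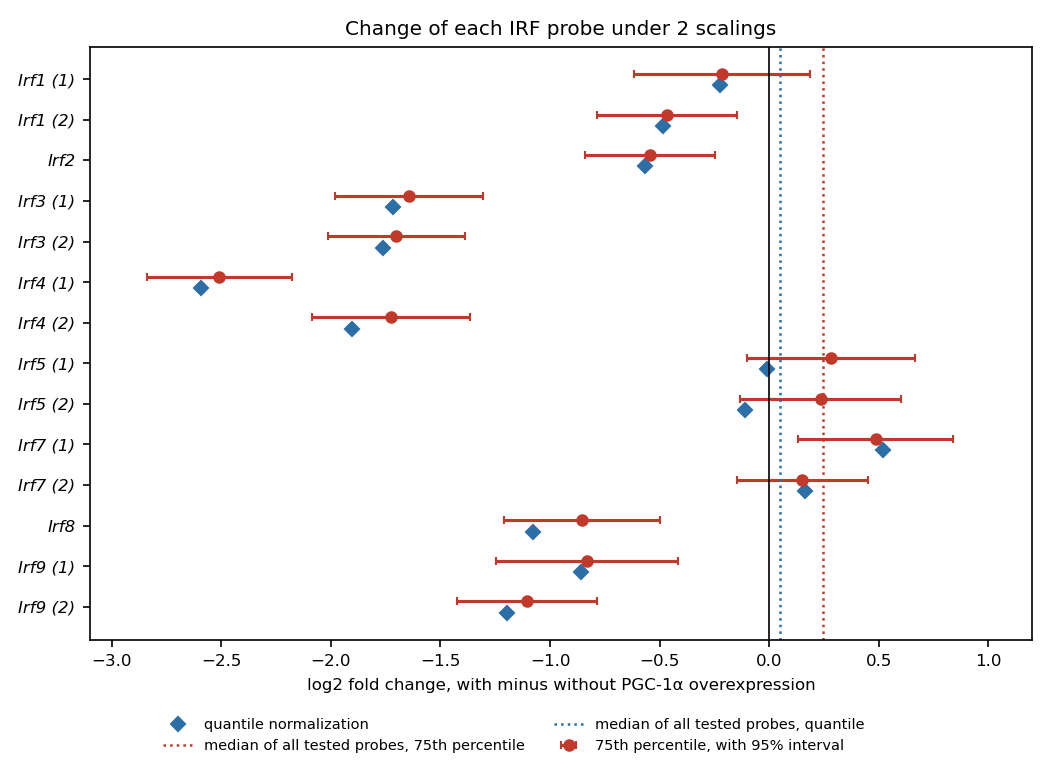
Log2 fold change (with minus without PGC-1α overexpression) of the 14 IRF probes after 75th percentile scaling (circles, with 95% intervals from limma) and after quantile normalization (diamonds), with the median of all tested probes under each as a dotted line. Irf3, Irf4, Irf8 and Irf9 lie left of -0.8 under both scalings and Irf2 near -0.5, while both Irf5 probes move from right of 0 to left of it.

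**Figure D3:**
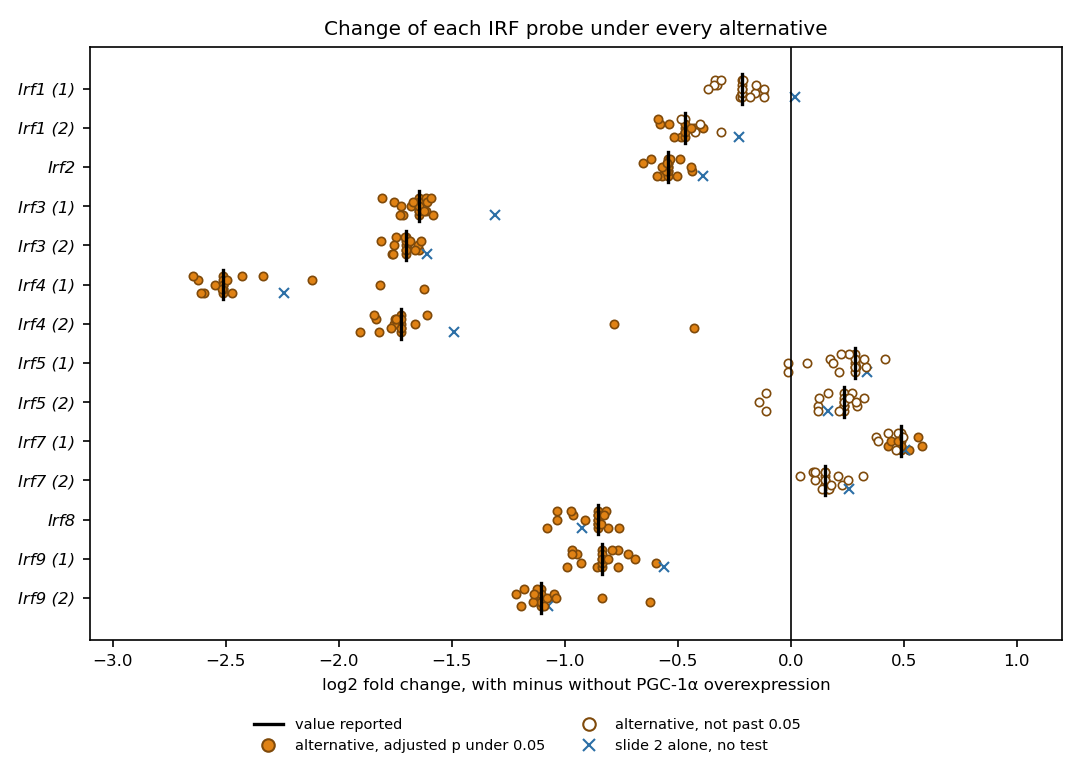
Log2 fold change (with minus without PGC-1α overexpression) of the 14 IRF probes as reported (vertical bars) and under every alternative processing (circles, filled where the adjusted p stayed under 0.05, and crosses for slide 2 alone, which has 1 array of each group and no test). Both Irf3 probes stay between -1.81 and -1.31, both Irf4 probes stay left of 0 with the normexp values nearest to it, and the called Irf1 and Irf7 probes each mix filled and open circles.

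Of the IRF2-binding proteins, corepressors named for their contact with IRF2, Irf2bp1 read -0.77, -1.18 and -1.25 without and -4.14, -3.74 and -3.91 with PGC-1α, a 7.27-fold fall (log2 fold change -2.86, SE 0.18, adjusted p = 5.72e-05, limma). Irf2bpl was lower too, with a log2 fold change of -0.79 (adjusted p = 0.0049, limma) and both its probes lower. Irf2bp2 lost too many spots to the scanner's outlier marks to be tested. In these arrays the 2 tested relatives thus fell with 5 of the 8 IRF genes.

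The genes around the IRFs were described from lists of pathway members, counted with the brightest tested probe of each gene, for which 53.3% of the 17062 genes tested passed, 18.5% lower and 34.8% higher, with a median log2 fold change of 0.23. Under quantile normalization 42.4% passed, 21.1% lower and 21.4% higher, with a median of 0.03. Among the sensors, adaptors and kinases that lead to IRFs, 10 of 21 tested genes were lower and 2 were higher, with a median log2 fold change of -0.42, and 11 were lower and 0 higher under quantile normalization. The number higher was 1 without replicate 2 or 3 of the arrays without PGC-1α or replicate 1 of those with it. Tlr4, the LPS receptor, had the largest fall of the list, from -2.98, -1.85 and -2.01 without to -5.52, -5.50 and -5.54 with PGC-1α (log2 fold change -3.24, SE 0.28, adjusted p = 1.90e-04, limma), and both its probes were lower. Tlr7, a sensor of single-stranded RNA, had a log2 fold change of -1.96 (adjusted p = 3.75e-04, limma), though 1 of its 3 probes was higher. Ly96, the MD-2 subunit that Tlr4 needs to bind LPS, was higher by 0.72 and Irak1, a kinase behind MyD88, by 0.48 on the log2 scale, and neither passed under quantile normalization (0.09 and 0.21). The other Ly96 probe was at 0.14 and did not pass. Of the kinases that phosphorylate IRF3 and IRF7, Tbk1 had a log2 fold change of -0.54 (SE 0.15, adjusted p = 0.021, limma, 2 arrays against 3 since 1 spot was an outlier) and Ikbke -0.07 (SE 0.14, adjusted p = 0.68, limma).

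Of the interferon genes themselves, the targets of IRF3 and IRF7, 7 of 14 tested (50%, against 34.8% of all genes) were higher and 0 lower, with a median log2 fold change of 0.67. Under quantile normalization 3 were higher, or 21.4%, the same share as over all genes. The number higher was 13 with normexp and 75th percentile scaling, 10 with the replicate or slide block or without replicate 3 of the PGC-1α arrays, 4 without replicate 1 of either group, 3 without the filter on dim probes and 2 without replicate 3 of the arrays without PGC-1α, so the count for this list is loosely fixed. Ifnb1, encoding interferon-β, read -5.73, -5.41 and -5.84 without and -4.94, -4.45 and -4.94 with PGC-1α. After scaling it did not overlap between the groups and was 1.85-fold higher (log2 fold change 0.89, SE 0.19, adjusted p = 0.0068, limma). Before scaling its intensities were 30.4, 38.3 and 33.0 without and 37.8, 39.0 and 41.4 with PGC-1α, which overlap. Ifna15 and Ifna7 had log2 fold changes of 0.89 each, and Ifna7 lost its call under quantile normalization. The interferon-α genes are near-identical copies, so their probes may share targets, and Ifnb1 and Ifna7 were dim. Ifna11, called higher, was well above background on 2 arrays without and 3 with PGC-1α. It thus entered the test only through the PGC-1α group.

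In the list of interferon receptors, JAK kinases and STAT partners, 4 of 8 genes were lower and 1 was higher, with a median of -0.32. These shares were 50%, against 18.5% of all genes, and 12.5%, against 34.8%. Ifngr2, a chain of the interferon-γ receptor, had a log2 fold change of -0.95 (adjusted p = 0.0012, limma) and Tyk2, the kinase on the interferon-α/β receptor, -0.68 (adjusted p = 0.0083, limma). Stat2, which acts together with IRF9, was at 0.51 (SE 0.15, adjusted p = 0.021, limma) with its brighter probe, while its other probe was lower, so Stat2 has no settled direction. Among the DNA-binding partners of IRF4 and IRF8, 2 of 10 (20%, near the 18.5% of all genes) were lower and 0 higher. The number lower was 1 without replicate 1 of the arrays without PGC-1α, 3 without replicate 2 of those with it and 0 with normexp and 75th percentile scaling, and up to 2 were higher under the alternatives. Spi1, encoding PU.1, was at 0.17 (SE 0.21, adjusted p = 0.51, limma) and did not pass, and Batf2 was at -0.66 (adjusted p = 0.019, limma). Spib was well above background on 3 arrays without and 0 with PGC-1α. It was at least 2.00-fold lower, a bound from the lowest signal well above background on each array. Spib, 1 of the 2 genes counted lower, thus entered the test only through the group without PGC-1α, where it was brighter. Of the brakes on interferon signalling 4 of 10 (40%, against 18.5% of all genes) were lower and 0 higher. The falls were led by Socs3, a suppressor of cytokine receptors, at -1.90 (adjusted p = 2.09e-04, limma) and Dusp1, a phosphatase of MAP kinases, at -1.84 (adjusted p = 9.17e-05, limma).

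Downstream, the genes under IRF control did not move as a block. Of 29 tested interferon-stimulated genes with response elements, 11 were lower, 6 were higher and 12 did not pass. Their median log2 fold change was -0.12, against 0.23 over all genes. The share lower was 37.9%, against 18.5% of all genes, and the share higher 20.7%, against 34.8%. Under quantile normalization 11 were lower (37.9%, against 21.1%) and 4 higher (13.8%, against 21.4%). Measured against all genes the list thus leaned lower, with calls in both directions. Cmpk2, a nucleotide kinase, was 5.81-fold lower (log2 fold change -2.54, adjusted p = 5.28e-05, limma) and Parp14, an ADP-ribosyltransferase, 3.19-fold lower (log2 fold change -1.67, adjusted p = 6.14e-04, limma). The other Parp14 probe was lower too, but with a log2 fold change of only -0.46. Cmpk2 was well above background on only 2 of the 3 arrays with PGC-1α, so the size of its fall is uncertain. Zbp1, a nucleic acid sensor, was 2.04-fold higher (log2 fold change 1.03, adjusted p = 0.0016, limma) and Isg15, a ubiquitin-like modifier, 1.70-fold higher (log2 fold change 0.77, adjusted p = 0.0088, limma).

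Genes that depend on IRF1 were 8 of 16 higher (50%, against 34.8% of all genes) and 0 lower, with a median of 0.56. Under quantile normalization 6 were higher (37.5%, against 21.4%) and 0 lower. The number higher ranged from 4 with normexp and quantile normalization to 10 under other alternatives, with 0 lower under each. Of the 8 genes called higher, Gbp2 was well above background on 0 arrays without and 3 with PGC-1α, and Il12b on 2 and 3. These 2 genes thus entered the test only through the PGC-1α group. Nos2, the inducible nitric oxide synthase, was 2.15-fold higher (log2 fold change 1.11, adjusted p = 0.0015, limma), and Il12b, a subunit of interleukin-12 and interleukin-23, 2.04-fold higher (log2 fold change 1.03, adjusted p = 0.016, limma) on dim values. Among IRF8-dependent myeloid genes 4 of 13 (30.8%, against 34.8% of all genes) were higher and 2 (15.4%, against 18.5%) lower. Under quantile normalization 2 were higher (15.4%, against 21.4% of all genes) and 3 lower (23.1%, against 21.1%). With normexp added 0 were higher and 4 lower. Cybb, the phagocyte oxidase, was at 0.91 (adjusted p = 0.0059, limma), Klf4 at -0.84 (adjusted p = 0.0033, limma) and Fcgr1, an Fc receptor, at -0.77 (adjusted p = 0.0048, limma). Among the 8 IRF5-associated cytokine genes 4 were higher (50%, against 34.8% of all genes) and 2 lower (25%, against 18.5%). Under quantile normalization 4 were higher (50%, against 21.4%) and 3 lower (37.5%, against 21.1%). Ccl5 was at 1.09 (adjusted p = 9.09e-04, limma), Tnf at -1.75 (adjusted p = 4.08e-04, limma) and Il10 at -2.27 (adjusted p = 0.0011, limma), so opposite calls stood side by side within this short list. Il10 was well above background on only 2 of the 3 arrays with PGC-1α, so the size of its fall is uncertain too. Il12b stands in all 3 of these lists, so its limit holds for the number higher in each.

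**Figure D4:**
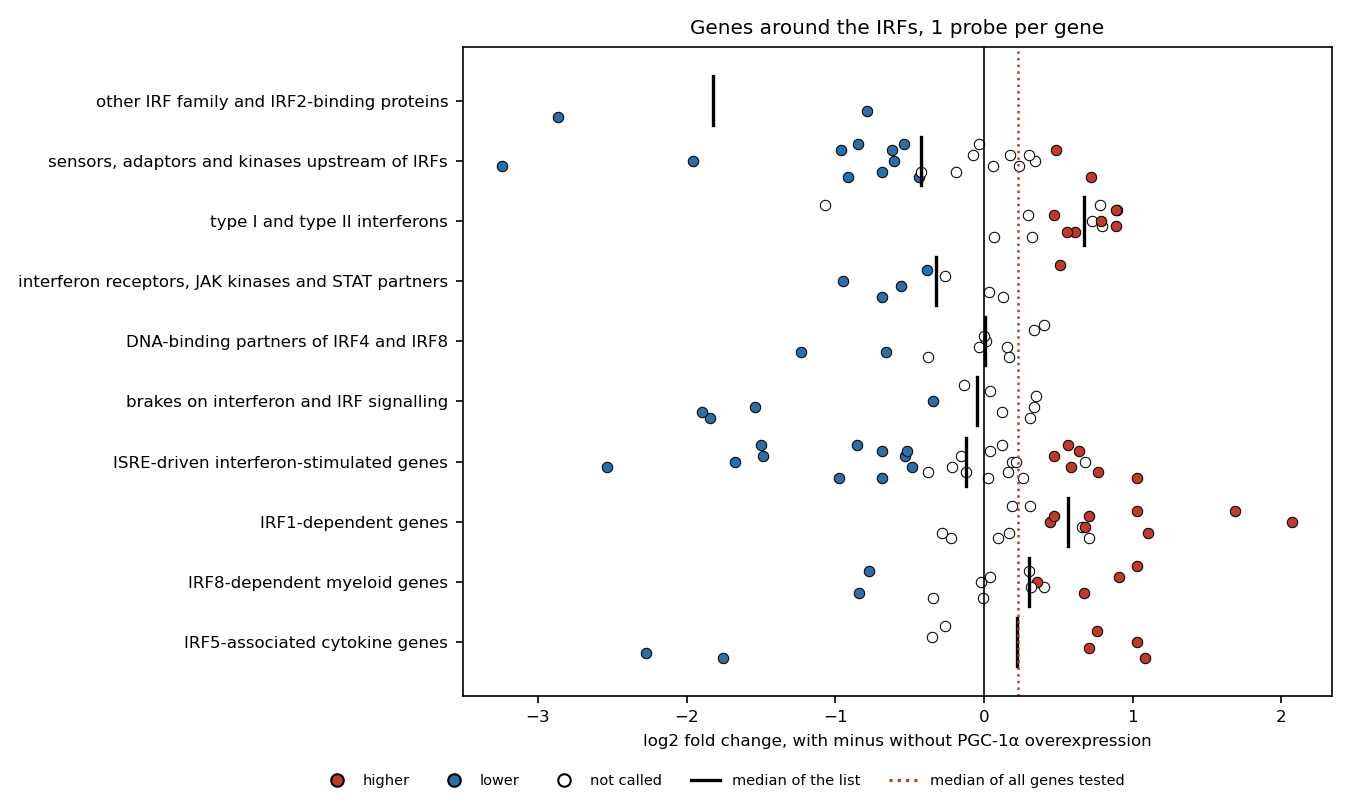
Log2 fold change (with minus without PGC-1α overexpression) of each tested gene in the lists around the IRFs, 1 probe per gene, with genes higher in red, lower in blue and not passing in white, the median of each list as a bar and the median of all genes tested as a dotted line. The interferons and IRF1-dependent genes have medians of 0.67 and 0.56 with none called lower, while the upstream list has a median of -0.42.

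The arrays had 41122 to 45165 of 59305 non-control spots well above background and no saturated spot. The 75th percentile of intensity was 1617, 1627 and 1893 without and 1157, 856 and 1268 with PGC-1α, so the PGC-1α arrays were dimmer before scaling. Ppargc1a, the transgene's own gene, checks the labels poorly: neither probe rose clearly over background on 3 arrays of either group, and their log2 differences were 1.14 with no overlap and 0.26 with overlap. Whether these probes lie in the transgene was not tested. Of 16 microglial and macrophage markers 14 were well above background on all 6 arrays, and the defining homeostatic markers Cx3cr1 and P2ry12 were so on none. The summed intensity of the 14 tested markers before scaling was 166835 to 191829 without and 146502 to 186372 with PGC-1α, which overlap, and as a multiple of each array's 75th percentile, which was lower with PGC-1α, it was 101 to 108 and 146 to 171, with 8 of 14 tested markers higher and 1, Tmem119, lower (2 and 2 under quantile normalization), and its part in the IRF values was not tested. Of markers of other cell types, 3 of 6 neuronal, 3 of 4 astrocytic, 1 of 5 oligodendrocyte, 1 of 3 endothelial, 3 of 4 fibroblast and 2 of 4 lymphocyte genes tested were higher and 1, 0, 0, 0, 1 and 1 lower. Over all genes 34.8% were higher and 18.5% lower. Under quantile normalization 2, 2, 1, 1, 2 and 1 of these markers were higher and 1, 0, 0, 1, 1 and 1 lower. The part of these markers in the IRF values was not tested either. In such bulk RNA, fewer cells expressing a factor and less of its RNA per cell cannot be told apart.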

How the data were processed

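The authors deposited the scanner output of 6 Agilent arrays, whose processed signal is a background-subtracted, single-colour intensity (Agilent Feature Extraction 11.5.1.1, per the file headers, which name the mouse mm9 design), with well-above-background and outlier flags. The labels and the study's methods differ on the dye's name (Cy3 or Cy5), and the files hold the green channel. Log2 values of 42110 probes, normalized by the authors in GeneSpring V13, were deposited too, and correlated with each array's own log2 intensity at 0.9988 or above. Each column had a median near 8.29, and how it was centred was not stated. It served as an alternative.

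Control spots and outlier spots were dropped and spots of a probe averaged. Signals were taken to log2 and each array's 75th percentile over non-control spots was subtracted. A probe was tested when it had values on at least 2 arrays per group and 1 group or both had it well above background throughout (38919 probes). The two-sided test was limma's (3.58.1, R 4.3.3) without a block, and p-values were adjusted by Benjamini-Hochberg across these probes, with a threshold of 0.05. The number of arrays limits the precision. Slide 1 held replicates 1 and 2 of both groups and slide 2 held replicate 3 of both. Probes were named through RefSeq accessions (59.7% of probes matched). The script was tested on simulated data of 37314 probes with 200 changed: 38% were recovered at a log2 fold change of 1 and 82% at 2, with 6.25% of calls false. In the real data a far larger share of probes, 53.8%, was called, and the Benjamini-Hochberg cutoff depends on that share. The simulated recovery thus does not measure recovery on these arrays.

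The members and gene lists were chosen with earlier results of these data known. Genes named were every member probe, the IRF2-binding proteins, Ifnb1, Stat2, Spi1, Tbk1, Ikbke and Ppargc1a, and per list up to 2 higher and 2 lower calls of largest size whose groups did not overlap and which were above background in each group. Spib, Tmem119, Cx3cr1 and P2ry12 were added after their values were seen. For each member the 2 genes of most similar profile were also named. A few genes that this rule takes in are not reported here. Alternatives were quantile normalization, normexp correction (offset 50), median scaling, other filters, outlier spots kept, slide and replicate blocks, each slide alone, a robust variance trend, 1 value per gene, the authors' values and each array left out.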

Additional observations from a re-analysis of the deposited data

How the results depend on the processing

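With 3 arrays per group and 53.8% of probes called, small fold changes such as those of Irf1, Irf5 and Irf7 are at the limit of these data. The 9 lower and 1 higher IRF calls were unchanged in number under quantile normalization, normexp with quantile normalization, the stricter background filter, outlier spots kept, the slide and replicate blocks, the robust variance trend and the authors' values. The number of IRF probes higher was 0 under median scaling, without the filter on dim probes and on slide 1 alone, and 0 to 1 when each array was left out, while the number lower was 8 or 9 throughout. Replicate numbers showed no clear pairing of the arrays. Deviations of same-numbered arrays correlated at -0.21, 0.00 and 0.59, and not every array correlated best with its own number. The 3 deviations in a group sum to 0, so these correlations constrain one another and cannot decide whether the arrays were paired. The value of 0.59 was that of replicate 3, whose arrays shared slide 2. With the replicate block 15271 probes were higher and 7532 lower, with no IRF call changed.

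Values that changed sign were Irf5 probe A_51_P346668 (-0.010 with quantile normalization and -0.011 with the authors' values), Irf5 probe A_55_P2739057 (-0.11 with quantile normalization, -0.14 with normexp and quantile normalization, and -0.11 with the authors' values) and Irf1 probe A_52_P175685 (0.020 on slide 2 alone). Irf1 probe A_55_P2000062 lost its call with normexp and 75th percentile scaling (-0.31) and without the dim-probe filter (-0.47), and ranged from -0.54 to -0.40 when arrays were left out. Irf7 probe A_51_P421876 lost it under median scaling (0.38), without the dim-probe filter (0.49) and on slide 1 alone (0.48), and ranged from 0.38 to 0.58. On slide 2 alone, with 1 array per group and no test, Irf1 probe A_55_P2000062 was at -0.23, Irf2 at -0.39, Irf3 probe A_55_P2083939 at -1.31, Irf4 at -2.24 and -1.49 and Irf7 probe A_55_P2744251 at 0.26. Irf9 probe A_51_P127367 was at -0.56 there, its smallest fall under any alternative. With arrays left out, Irf3 stayed within -1.76 to -1.58, the brighter Irf4 probe within -2.61 to -2.43 and Irf8 within -0.97 to -0.76. The probes that did not pass moved more for their size: Irf1 probe A_52_P175685 from -0.37 to -0.12, Irf5 from 0.19 to 0.42 and from 0.12 to 0.32, and Irf7 probe A_55_P2744251 from 0.11 to 0.21. Over all probes the number higher was 13793 as reported, 8908 with quantile normalization, 7462 with normexp and quantile normalization, 6290 with the brightest probe per gene, 5841 with the mean of probes per gene and 8864 with the authors' values, and 9871 to 13963 with arrays left out. Across all alternatives the number higher reached up to 17705 and the number lower up to 8345. The number lower was 7150 as reported, 3343 and 3535 with 1 value per gene, which tests fewer features, and 5726 to 7063 with arrays left out. For the other settings the cause was not tested.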

Other observations

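The genes that flank the IRF genes on the RefSeq map were looked up after the IRF values were seen. Of 16 neighbours 15 were tested, 4 were higher (26.7%, against 34.8% of all genes) and 3 lower (20%, against 18.5%), and their median log2 fold change was 0.15, against 0.23 over all genes. These shares are near those of all genes. Bcl2l12, an inhibitor of effector caspases that lies directly beside Irf3, had a log2 fold change of -0.46 (SE 0.12, adjusted p = 0.016, limma), and Scaf1, on its other side, 0.32 (SE 0.13, adjusted p = 0.073, limma). Flanking Irf4, Dusp22, a phosphatase 38001 bases away, was at 0.48 (adjusted p = 0.014, limma) and Exoc2, an exocyst subunit 22535 bases away, at 0.14 (adjusted p = 0.35, limma). The genes that flank Irf8 were Foxf1, a mesenchymal transcription factor 327692 bases away, and Cox4i1, a subunit of cytochrome c oxidase 62149 bases away. Foxf1 was at -2.11 (adjusted p = 0.0011, limma) but well above background on only 2 of the 3 arrays with PGC-1α. Cox4i1 was at 0.58 (adjusted p = 0.012, limma), and at -0.05 under quantile normalization. Beside Irf9, Rnf31, a subunit of the linear ubiquitin ligase, was at 0.34 (adjusted p = 0.069, limma).

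For each IRF gene's brightest probe the genes with the most similar values over the 6 arrays, centred on their mean, were found among 16295 genes with a value on every array. The closest to Irf4 were Tepsin and Ccl2, a monocyte chemokine, with root mean square differences of 0.063 and 0.069 log2 units and log2 fold changes of -2.47 and -2.61. The closest to Irf3 were Tut1 (0.060) and Zcchc2 (0.064), to Irf8 St7 (0.040) and Ccdc51 (0.049), to Irf9 Bpgm (0.054) and Pwp2 (0.080), and to Irf2 Osbp (0.027) and Mamdc4 (0.035). Irf1 was close to Rnf121 (0.048). Those closest to Irf5 were Eras (0.047) and Sra1 (0.059), and to Irf7 Crip1 (0.027) and Rdm1 (0.029). Likeness over 6 arrays in 2 groups is a description only.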
